A study of Mus musculus with 8 samples.

Results

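The genes described here are 46 genes of the early secretory pathway, measured in mesenchymal stem/progenitor cells (MSPCs) of mouse bone marrow. They were chosen by symbol among the 52636 genes of the deposited count table, and each symbol was matched to 1 Ensembl gene. By role, 13 of the 46 belong to the COPII vesicle coat, 6 to the translocon, 15 are chaperones and disulfide isomerases, 6 are stress sensors and transcription factors, 4 are cargo receptors and 2 belong to ER-associated degradation. All 46 had a count above 0 in every library, which was the requirement for testing, and so were among the 14598 genes tested. The choice named the comparison of genotypes and was made with results of these data known, so that differences between genotypes are given below as descriptions.

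Proteins destined for secretion or for the cell surface enter the endoplasmic reticulum (ER) through the SEC61 translocon, where chaperones such as BiP (Hspa5) and calreticulin and the disulfide isomerases fold them. Folded cargo leaves in vesicles coated by COPII, whose assembly starts with the small GTPase SAR1 and goes on with an inner layer of SEC23 and SEC24 and an outer cage of SEC13 and SEC31. When unfolded proteins accumulate, the sensors IRE1 (Ern1), PERK (Eif2ak3) and ATF6 start the unfolded protein response, which raises transcription of many ER chaperone genes. MSPCs secrete CXCL12, stem cell factor and extracellular matrix.

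RNA was sequenced from MSPCs of 4 CTR mice (Flk2-cre+ Cxcr4fl/+, named CTL in the sample labels) and 4 cKO mice (Flk2-cre+ Cxcr4fl/fl), with 1 library per mouse. All mice were on the C57BL/6 background, and their age is 6 weeks in the labels and older in the methods. Both genotypes carry the Flk2-cre transgene, which lies on the Y chromosome and is active in multipotent hematopoietic progenitors and their progeny, so that Cxcr4, the receptor of CXCL12, is deleted in hematopoietic cells and not in the MSPCs, and CTR mice carry 1 floxed Cxcr4 allele. The cells were sorted with the same gate in 2 rounds, which removed hematopoietic (CD45, Ter119) and endothelial (CD31, CD144) cells. The gate kept cells with PDGFRα and with GFP from a Kitl allele, carried in both groups. The paper reports that in cKO mice heterozygous for this allele, membrane-bound stem cell factor on niche cells was at the wild-type level. Their number of hematopoietic stem cells was also back at a physiological level. The comparison asks whether the transcriptome of the niche cell differs when hematopoietic progenitors cannot respond to CXCL12.

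Many ER chaperone promoters carry an ER stress element (ERSE), read as CCAAT and CCACG with 9 bases of any kind between them, to which NF-Y and cleaved ATF6 are known to bind. RefSeq promoter windows on GRCm38.p6, from 250 bases before to 50 bases after the gene start, were matched for 39 of the 46 genes. They were searched on both strands for exact matches, and near matches were not sought. A gene without an ERSE here therefore means a gene without an exact match in its window. An ERSE was present in the windows of 7 of the 39 genes, while 37 of 27025 genes with a window carried one (0.137%). Since the motif is known from promoters of ER chaperones, and these were among the genes chosen, its share here is no independent result. The stretches are shown as a description. They are written 5′ to 3′ on the strand on which the motif reads, with the motif in capitals and 5 flanking bases on each side.
Hspa5: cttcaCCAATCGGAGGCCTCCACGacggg
Hsp90b1: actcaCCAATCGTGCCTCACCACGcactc
Hsp90b1: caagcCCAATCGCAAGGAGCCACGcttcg
Calr: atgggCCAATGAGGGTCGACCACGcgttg
Calr4: tgcagCCAATGGTTGGGGACCACGagctg
Canx: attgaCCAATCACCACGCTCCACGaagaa
Dnajc3: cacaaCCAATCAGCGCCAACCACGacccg
Pdia6: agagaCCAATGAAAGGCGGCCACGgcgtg
The capitals lie at chr2:34772025-34772043 for Hspa5, chr10:86705533-86705551 and chr10:86705638-86705656 for the 2 copies of Hsp90b1, chr8:84847075-84847093 for Calr, chr4:109218238-109218256 for Calr4, chr11:50325800-50325818 for Canx, chr14:118937827-118937845 for Dnajc3 and chr12:17266491-17266509 for Pdia6. All of them are upstream of the RefSeq gene start. In the GENCODE annotation used for the counts, the start of Calr4 lies 16072 bases downstream of the RefSeq start, and that of Hspa5 lies 120 bases upstream of it, so that the Hspa5 motif falls after the GENCODE start. For the other 9 genes of this and the next set the starts are within 65 bases of each other. The motif reads on the strand opposite to the gene in Calr, Calr4 and the first of the Hsp90b1 stretches, and on the strand of the gene in the others.

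A shorter variant, ERSE-II (ATTGG and CCACG with 1 base between them), was found in 2 of the 39 windows and in 12 of the 27025 (0.0444%). The unfolded protein response element (UPRE, TGACGTGG), a motif of the XBP1 protein, was found in 2 of the 39 windows and in 193 of the 27025 (0.714%). They are shown because these 4 genes have no exact ERSE match in the window and 2 of them belong to the COPII coat.
Herpud1: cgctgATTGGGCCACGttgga
Dnajb11: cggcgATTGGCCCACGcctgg
Sec23a: cccttTGACGTGGcagag
Sec24d: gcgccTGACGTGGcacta
The ERSE-II stretches lie at chr8:94386377-94386387 (Herpud1) and chr16:22857852-22857862 (Dnajb11), and the UPRE stretches at chr12:59012004-59012011 (Sec23a) and chr3:123267470-123267477 (Sec24d). Those of Dnajb11 and Sec23a are just downstream of the RefSeq gene start. A match of letters describes the window and does not show that a factor binds there.

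Total counts per library ranged from 31047344 to 38216877, and 18366 to 20684 genes had a count. The 7 MSPC markers (among them Lepr, Cxcl12 and Kitl) were detected in every library, with a summed level of 48920 to 61860 CPM, where CPM is the read count normalised to the TMM-scaled library size. The 8 osteoblast markers summed to 10340 to 13470 CPM in CTR and 10370 to 15770 CPM in cKO. Endothelial markers summed to 2.14 to 5.59 CPM, and the markers of other hematopoietic cells to 47.6 to 139.6 CPM in CTR and 106.1 to 189.8 CPM in cKO, with Ptprc, the common leukocyte antigen, at 0 to 32 counts per library. The plasma cell markers other than Sdc1, which is detected at 23968 or more counts everywhere, summed to 214 CPM in CTR3 and to 0 to 4.87 CPM in the other 7 libraries, with Igha at 2945 and Jchain at 747 counts in CTR3. The titles of CTR2, CTR4, cKO2 and cKO4 carry the numbers 26 to 32 and those of CTR1, CTR3, cKO1 and cKO3 the numbers 67 to 86, a number whose meaning the labels leave out.

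Many of the secretory genes were abundant transcripts of MSPCs. By mean CPM per kb of exon, 43 of the 46 were above the median of the 14598 genes tested, 25 were in the top 10% and 6 in the top 1%, and their median percentile was 91.9. Together they took up 1.19% to 1.46% of all counts in a library, with 1.35% ± 0.11 in CTR and 1.35% ± 0.11 in cKO (SD, n = 4 each). Chaperones and disulfide isomerases made up most of this share, with 0.742% to 0.999% of all counts, against 0.135% to 0.177% for the COPII coat. A similar median percentile of 90.9 was found for 104 other genes of the pathway, which are described below.

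**Figure D1:**
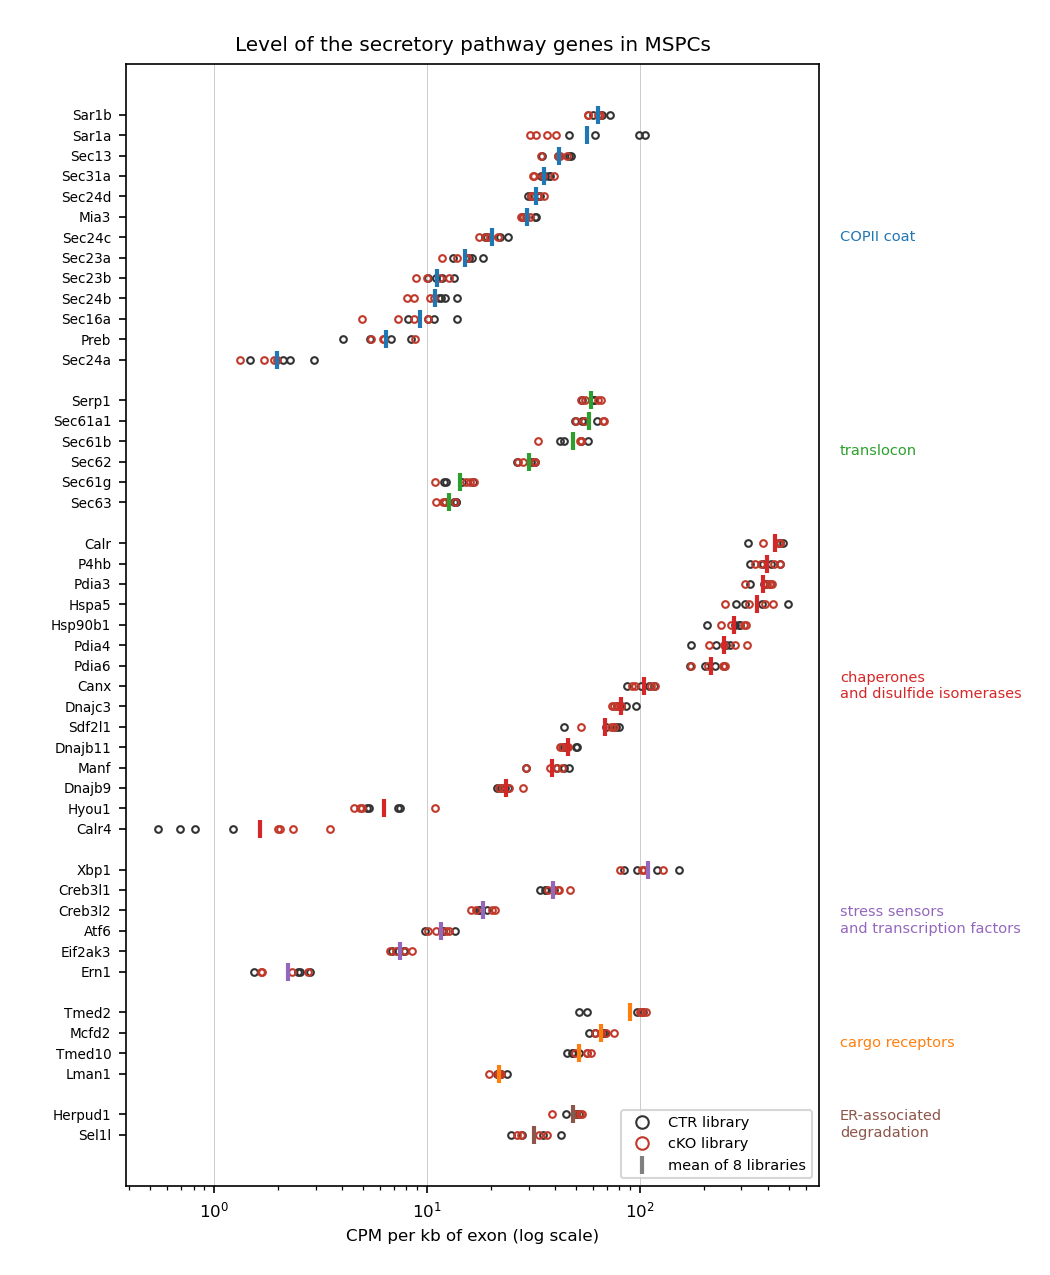
CPM per kb of exon (log scale) of the 46 genes in each CTR (black) and cKO (red) library, grouped by role and ordered by the mean of 8 libraries (coloured bar). Calr, P4hb, Pdia3, Hspa5, Hsp90b1 and Pdia4 lie at or above 174 CPM per kb in every library, while Calr4, Sec24a and Ern1 are the lowest.

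Calr, which encodes the lectin chaperone calreticulin, had the highest level with a mean of 429 CPM per kb, and its values were 1348, 925, 1317 and 1303 CPM in CTR1 to CTR4 and 1297, 1089.6, 1307 and 1303 CPM in cKO1 to cKO4. CTR2 was the lowest library of CTR and cKO2 of cKO, and the genotypes overlapped. P4hb and Pdia3, which encode disulfide isomerases, followed with 398 and 381 CPM per kb. The order of these 3 genes was not the same in all libraries, since Calr exceeded P4hb in 5 of 8 and P4hb exceeded Pdia3 in 5 of 8. Hspa5, the main Hsp70 chaperone of the ER, had 355 CPM per kb and exceeded Hsp90b1 (GRP94, 276 CPM per kb) in 6 of 8 libraries. Pdia4 had 247 and Pdia6 216 CPM per kb, and Canx, the membrane-bound relative of calreticulin, had 104. The BiP cofactors were lower, at 81.3 for Dnajc3, 68.4 for Sdf2l1, 45.8 for Dnajb11, 23.5 for Dnajb9 and 6.30 CPM per kb for the nucleotide exchange factor Hyou1. Manf, a secreted ER protein, had 38.8 CPM per kb. Calr4, a calreticulin homologue, was the lowest of all 46 genes at 1.65 CPM per kb (percentile 27.9), and within a library Calr exceeded it by 129 to 844 times.

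Of the 7 genes with an ERSE, 6 had a level above the 96th percentile of the genes tested, with Dnajc3 the lowest of these at 96.7. The other, Calr4, was at percentile 27.9. The median percentile was 98.98 for the 7 genes with an ERSE and 89.9 for the 32 with a window and no ERSE. Of these 32, 4 were above the 96th percentile. All 7 genes with an ERSE belong to the chaperones and disulfide isomerases, so that motif and role are not separated here. In that role, P4hb, Pdia3 and Pdia4 had no exact ERSE match in the window and were at percentiles 99.49, 99.48 and 99.14. Dnajb11 and Dnajb9, also without one, were at 93.29 and 86.0, and Sdf2l1 lay between Pdia4 and Dnajb11. The part of role in the difference was not tested.

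Paralogs of the COPII coat were expressed at unequal levels. Sec24, the subunit that selects cargo, was measured as 4 paralogs, and their order in every library was Sec24d (32.4 CPM per kb on average), Sec24c (20.2), Sec24b (10.9) and Sec24a (1.97). Within a library Sec24d exceeded Sec24c by 1.25 to 2.03 times, and Sec24b exceeded Sec24a by 4.14 to 9.33 times. Sec23a (15.003 CPM per kb) was above Sec23b (11.2) in 8 of 8 libraries, by 1.02 to 1.80 times. Both Sar1 GTPases were abundant, with 63.4 CPM per kb for Sar1b and 56.7 for Sar1a. Their order was not the same in every library. The mean of Sar1a was above that of Sar1b in CTR (78.3 against 66.1 CPM per kb) and below it in cKO (35.0 against 60.7), and Sar1a was the higher of the pair in CTR3 and CTR4 and Sar1b in the other 6 libraries. Sar1b, the highest gene of the coat by its mean over all 8 libraries, measured 83.1, 81.5, 91.1 and 76.0 CPM in CTR1 to CTR4 and 79.8, 71.8, 81.3 and 71.9 CPM in cKO1 to cKO4, a range without a separation of the genotypes. Sec13 (41.6 CPM per kb) and Sec31a (35.4) of the outer cage were of the same order as Mia3 (29.5), whose product TANGO1 loads bulky cargo such as procollagen. Sec16a, which organizes ER exit sites, had 9.23 CPM per kb, and Preb, whose product SEC12 activates SAR1, had 6.41.

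In the translocon, Serp1, which encodes the stress-associated protein RAMP4, had the highest level (59.2 CPM per kb), and its values were 277, 248, 281 and 282 CPM in CTR1 to CTR4 and 304, 244, 294 and 256 CPM in cKO1 to cKO4. Sec61a1, the channel subunit, had 57.5 CPM per kb and exceeded the small subunit Sec61b (48.3) in 8 of 8 libraries, by 1.01 to 1.504 times. Sec61g had 14.3 and Sec62, a subunit for post-translational import, 30.0 CPM per kb. Sec63, the lowest of the translocon at 12.7 CPM per kb, measured 119.9, 119.8, 118 and 107 CPM in CTR1 to CTR4 and 97.0, 118, 106 and 104 CPM in cKO1 to cKO4. Its genotype ranges overlapped.

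Among sensors and transcription factors, Xbp1 had the highest level (109 CPM per kb), followed by Creb3l1 (39.1), a factor of bone matrix secretion also known as OASIS, and its homologue Creb3l2 (18.3). The sensors themselves were ordered Atf6 (11.6 CPM per kb), Eif2ak3 (7.50) and Ern1 (2.22) in 8 of 8 libraries. Ern1, the kinase and nuclease that splices Xbp1 mRNA, measured 20.3, 23.1, 12.5 and 20.8 CPM in CTR1 to CTR4 and 13.5, 22.6, 18.9 and 13.7 CPM in cKO1 to cKO4, and CTR3 was its lowest library. Gene counts do not distinguish spliced from unspliced Xbp1 mRNA.

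Among cargo receptors, the p24 protein Tmed2 was the highest (89.8 CPM per kb) and its partner Tmed10 had 51.9. Lman1 and Mcfd2 encode the receptor complex for coagulation factors V and VIII, and Mcfd2 (65.9 CPM per kb) exceeded Lman1 (21.8) in 8 of 8 libraries. Lman1, the lowest cargo receptor, measured 187, 197, 189.8 and 211 CPM in CTR1 to CTR4 and 196, 192, 173 and 190.0 CPM in cKO1 to cKO4. It was among the least variable of the 46 genes, with a coefficient of variation of 5.44% over the 8 libraries. The ER-associated degradation gene Herpud1 (48.8 CPM per kb) measured 117, 104, 115 and 120.2 CPM in CTR1 to CTR4 and 125, 116, 121 and 90.2 CPM in cKO1 to cKO4, where cKO4 was the lowest library, and Sel1l, the adaptor of the HRD1 ubiquitin ligase, had 31.9 CPM per kb.

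Between genotypes, most of the 46 genes differed little. With edgeR's quasi-likelihood test, 0 of the 46 had an adjusted p under 0.05, as was the case for 0% of the 14598 genes, and 3 had an unadjusted p under 0.05 (4.43% of all genes), of which 1 was higher in cKO (2.35% of all genes) and 2 were lower (2.08%). The same 3 were those whose genotypes did not overlap (2.62% of all genes). The 4 libraries of cKO lay apart from the 4 of CTR for 1 gene that was higher, Calr4 (1.34% of all genes), and for 2 that were lower, Sar1a and Sec24b (1.29% of all genes). The median log2 fold change (cKO over CTR) was -0.02 over the 46 genes and -0.0013 over all genes, and 21 of the 46 were positive and 25 negative. The median absolute log2 fold change was 0.0857 over the 46 genes, 0.141 over all genes and 0.108 over the 9406 genes that reached 10 CPM on average. DESeq2's likelihood ratio test called 2 of the 46, Calr4 and Sar1a, with 0.151% of all genes called, and the same 2 with the title number range as a term, with 0.322% called. In sorted bulk samples, fewer cells of a type and less RNA per cell cannot be told apart.

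**Figure D2:**
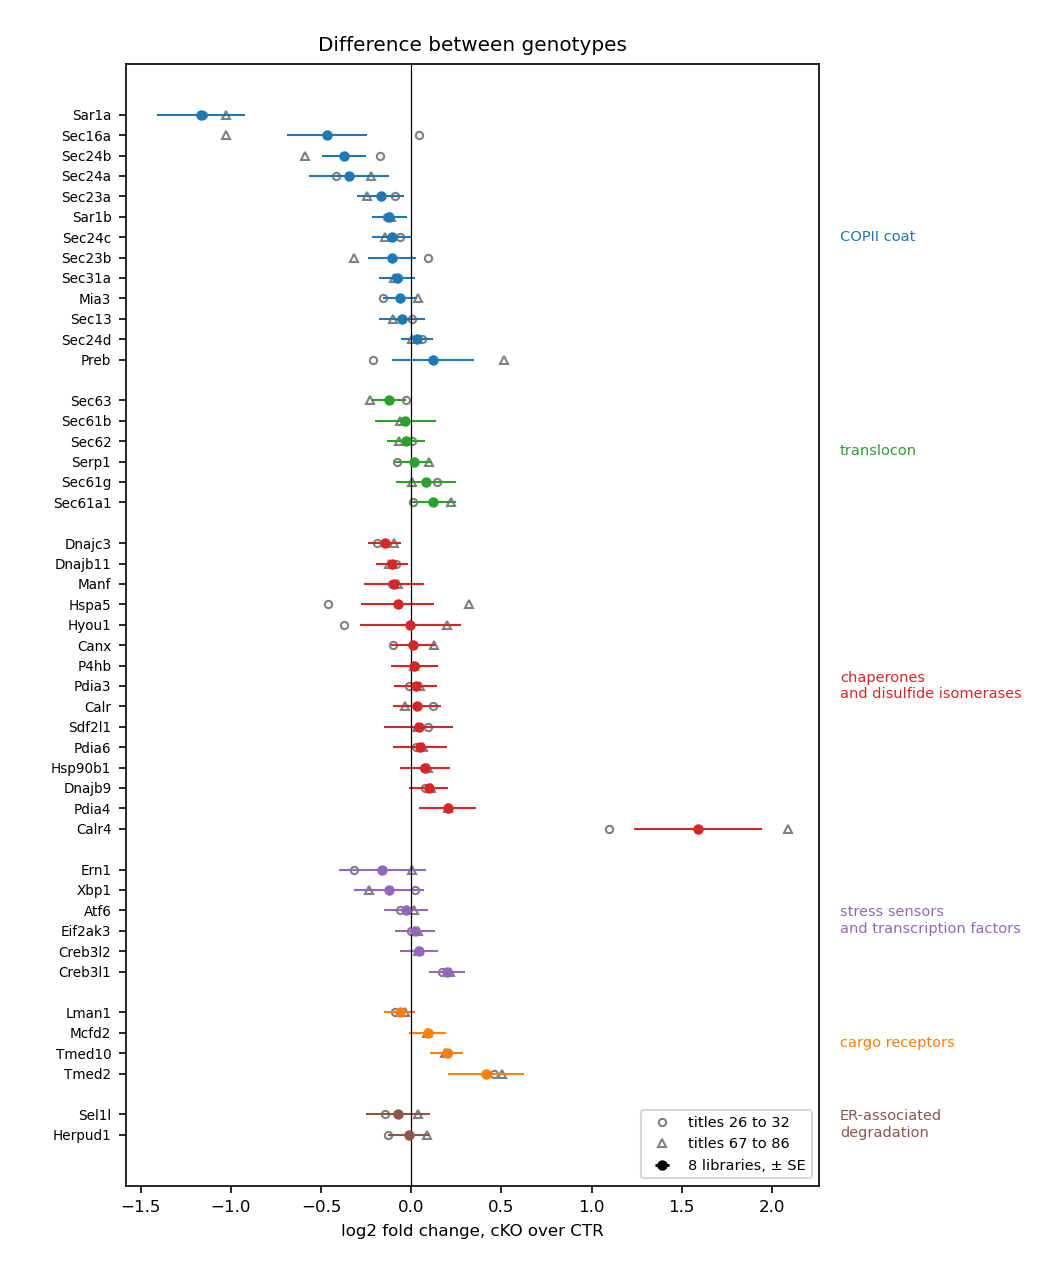
Log2 fold change of cKO over CTR for the 46 genes by role, from 8 libraries with the standard error (filled), and the difference of mean log2 CPM within titles 26 to 32 (circles) and 67 to 86 (triangles). Sar1a (-1.16) has the largest negative and Calr4 (1.59) the largest positive value over the 8 libraries, while Sec16a is at -1.02 within titles 67 to 86 and at 0.05 within 26 to 32.

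By role, the median log2 fold change was -0.11 for the COPII coat, -0.01 for the translocon, 0.02 for chaperones and disulfide isomerases, -0.003 for sensors and transcription factors, 0.14 for cargo receptors and -0.04 for ER-associated degradation. In the coat 11 of 13 values were negative, and among the chaperones 10 of 15 were positive. The coat took up 0.157% to 0.177% of counts in CTR and 0.135% to 0.143% in cKO libraries. Without Sar1a, the other 12 coat genes took up 0.126% to 0.140% in CTR and 0.122% to 0.128% in cKO libraries, so that the 2 genotypes overlapped. For cargo receptors the shares were 0.0778% to 0.0909% in CTR and 0.0926% to 0.1004% in cKO, which did not overlap. This sum holds 4 genes. Among them Tmed2 had 131 and 142 CPM in CTR2 and CTR3, against 244 and 260 CPM in CTR1 and CTR4 and 253 to 269 CPM in cKO. The sum without Tmed2 was not taken. These sums were not tested.

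Calr4 (ENSMUSG00000028558.14, chr4:109234485-109254571 of GRCm38) had the largest positive value. Its counts were 54, 67, 44 and 116 in CTR1 to CTR4 and 288, 177, 168 and 228 in cKO1 to cKO4, which correspond to 1.75, 2.05, 1.37 and 3.10 CPM in CTR1 to CTR4 and 8.82, 5.05, 5.17 and 5.93 CPM in cKO1 to cKO4. Every cKO library was above every CTR library, with cKO1 the highest and CTR3 the lowest. The means were 2.07 ± 0.746 CPM for the 4 CTR mice and 6.24 ± 1.76 CPM for the 4 cKO mice (SD), with a log2 fold change of 1.59 (standard error 0.35). The value was 1.10 within titles 26 to 32 and 2.09 within 67 to 86, and 1.37 to 1.85 when single libraries were left out. At 44 to 288 counts per library, it had the lowest mean CPM of the 46 genes. Its close relative Calr had a log2 fold change of 0.03 (standard error 0.13).

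Sar1a (ENSMUSG00000020088.10, chr10:61680299-61693297 of GRCm38) had the largest negative value. Counts of Sar1a were 5346, 7502, 12782 and 13913 in CTR1 to CTR4 and 4469, 3998, 3942 and 5812 in cKO1 to cKO4, or 173, 230.0, 397 and 372 CPM in CTR1 to CTR4 and 137, 114, 121 and 151 CPM in cKO1 to cKO4. All cKO libraries were below all CTR libraries. Within CTR the values spread from CTR1, which lay just above the highest cKO library, to CTR3 and CTR4, while the cKO libraries lay close together. The means were 293 ± 109 CPM for the 4 CTR mice and 131 ± 16.6 CPM for the 4 cKO mice (SD), and the log2 fold change was -1.16 (standard error 0.24), with -1.16 and -1.02 within the lower and higher title numbers and -1.35 to -0.99 with libraries left out. In CTR, Sar1b was at 0.608 to 1.43 times the level of Sar1a per kb, and in cKO at 1.42 to 2.00 times. The log2 fold change of Sar1b was -0.12 (standard error 0.10).

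The other coat genes with negative values were smaller in size or less even. Sec24b measured 68.8, 73.4, 82.9 and 69.8 CPM in CTR1 to CTR4 and 48.4, 62.0, 52.1 and 65.1 CPM in cKO1 to cKO4, and all cKO values were below all CTR values, with cKO1 and cKO3 the lowest. Its log2 fold change was -0.37 (standard error 0.12), with -0.17 within titles 26 to 32 and -0.59 within 67 to 86. Sec16a measured 127, 92.9, 99.6 and 74.4 CPM in CTR1 to CTR4 and 45.3, 92.5, 67.4 and 79.7 CPM in cKO1 to cKO4. The Sec16a groups overlapped, and its log2 fold change of -0.47 (standard error 0.22) came with 0.05 within titles 26 to 32 and -1.02 within 67 to 86, where cKO1 was the lowest and CTR1 the highest library. Sec24a measured 22.5, 31.5, 15.8 and 24.3 CPM in CTR1 to CTR4 and 18.4, 21.1, 14.2 and 20.3 CPM in cKO1 to cKO4, with overlapping groups, CTR2 highest and a log2 fold change of -0.35 (standard error 0.22). The values of Preb (0.12, standard error 0.23) were -0.21 and 0.51 in the lower and higher title ranges, hence of opposite sign.

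**Figure D3:**
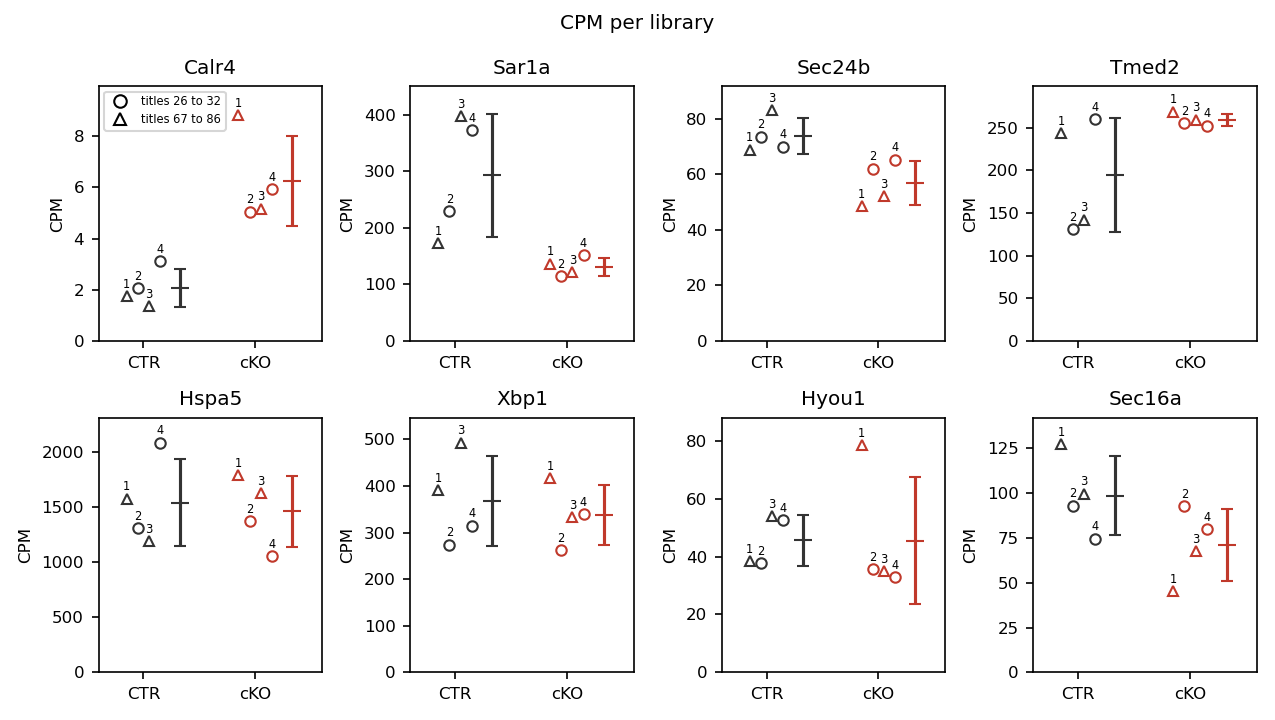
CPM per library of 8 genes in CTR (black) and cKO (red), with the replicate number beside each point, circles for titles 26 to 32, triangles for 67 to 86, and the mean ± SD at the right of each group. The genotypes separate for Calr4, Sar1a and Sec24b and overlap for the other 5 genes.

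Tmed2 had the second largest positive value. It measured 244, 131, 142 and 260.5 CPM in CTR1 to CTR4 and 269, 255, 259.7 and 253 CPM in cKO1 to cKO4, so that CTR2 and CTR3 were low, CTR4 was within the range of the cKO libraries and CTR1 just below it. The log2 fold change was 0.41 (standard error 0.21), and 0.26 to 0.58 with each library left out, the lowest without CTR2. Its partner Tmed10 measured 278, 265, 299.6 and 282 CPM in CTR1 to CTR4 and 329, 289, 328 and 343 CPM in cKO1 to cKO4, with overlapping ranges and a log2 fold change of 0.20 (standard error 0.09). Pdia4 measured 607, 418, 636 and 547 CPM in CTR1 to CTR4 and 767, 507, 669 and 596 CPM in cKO1 to cKO4, where cKO1 was the highest and CTR2 the lowest library, and had a log2 fold change of 0.20 (standard error 0.16). For Creb3l1 the values were 94.6, 88.3, 103 and 93.2 CPM in CTR1 to CTR4 and 122, 96.1, 107 and 109 CPM in cKO1 to cKO4. Its groups overlapped, with a log2 fold change of 0.20 (standard error 0.10) that was 0.17 and 0.22 in the lower and higher title ranges.

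The chaperone Hspa5 and the sensors of ER stress did not separate the genotypes. Hspa5 measured 1580.3, 1313, 1191 and 2088 CPM in CTR1 to CTR4 and 1792, 1373, 1633 and 1056 CPM in cKO1 to cKO4, with CTR4 the highest and cKO4 the lowest of all libraries and a log2 fold change of -0.08 (standard error 0.20). Its difference had opposite signs in the title ranges, -0.46 in 26 to 32 and 0.32 in 67 to 86. Xbp1 measured 391, 274, 493 and 315 CPM in CTR1 to CTR4 and 417, 262, 333 and 339 CPM in cKO1 to cKO4, with a log2 fold change of -0.12 (standard error 0.19). CTR3, the highest library for Xbp1, is the library with plasma cell transcripts, whose part in the result was not tested, and without CTR3 the value was 0.04. The log2 fold changes of the sensors were -0.03 for Atf6, 0.02 for Eif2ak3 and -0.16 for Ern1, with standard errors of 0.12, 0.11 and 0.24. For Hyou1, cKO1 had 78.5 CPM and the other 7 libraries 32.9 to 54.0 CPM, and its log2 fold change was -0.01 (standard error 0.28), or -0.41 without cKO1. The remaining genes of the translocon, the chaperones and the degradation genes had log2 fold changes between -0.15 (Dnajc3) and 0.12 (Sec61a1), and the difference had the same sign in both title ranges for 28 of the 46 genes.

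The secretory genes had a lower median variation between libraries than all genes tested. The median coefficient of variation over the 8 libraries was 12.1% for the 46 genes and 11.2% for 104 other genes of the pathway. This median was 20.6% for all genes tested and 15.7% for the genes with at least 10 CPM. Among the 46 genes, the coefficient was highest for Calr4 (61.6%), Sar1a (53.2%) and Hyou1 (34.1%), and lowest for Lman1 (5.44%) and Sec24d (5.83%). Over the 8 libraries, the genes with the log2 CPM pattern most like that of Hspa5 were Herpud1 (Pearson's r = 0.78), Dnajc3 (0.64), Canx (0.64), Serp1 (0.60) and Atf6 (0.53), as a description over points that share library preparation and depth.

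**Figure D4:**
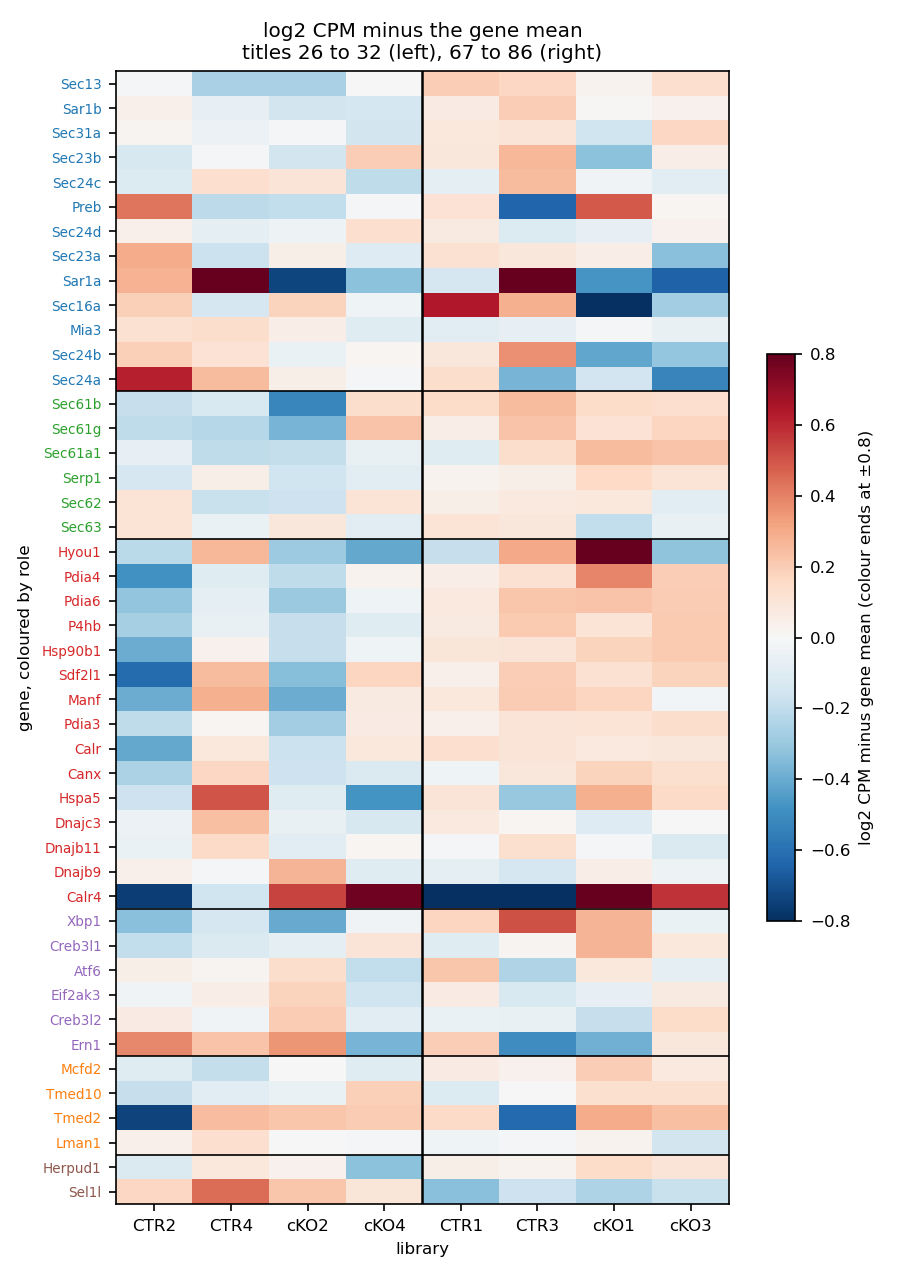
Log2 CPM minus the mean of each gene for the 46 genes (rows, coloured by role) in the 8 libraries, with titles 26 to 32 at the left and 67 to 86 at the right of the line and the colour scale ending at ±0.8. Pdia4, Pdia6, P4hb and Hsp90b1 are lower in CTR2 and cKO2 than in the libraries at the right, and Sel1l is higher at the left.

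The libraries of the higher and lower title numbers hold 2 mice of each genotype each, and were compared with genotype in the model. This contrast was not named in the choice of genes. With edgeR's quasi-likelihood test, 0 of the 46 genes had an adjusted p under 0.05, against 0.0137% of all genes. At an unadjusted p under 0.05 there were 9 genes that were higher in titles 67 to 86 (5.1% of all genes) and 2 that were lower (6.5% of all genes). The title ranges did not overlap for 7 genes (6.87% of all genes). These were 6 genes that were higher (3.43% of all genes), namely Sec13, Hsp90b1, Pdia4, Pdia6, P4hb and Mcfd2, and 1 that was lower (3.45% of all genes), Sel1l. The median log2 difference (titles 67 to 86 over 26 to 32) was 0.06 over the 46 genes and -0.0065 over all genes, and with each library left out it was 0.0529 to 0.11, with the highest value without CTR3 and 0.0949 without CTR1. By role it was 0.22 for the translocon, 0.19 for chaperones and disulfide isomerases, 0.04 for cargo receptors, -0.01 for sensors and transcription factors, -0.03 for the COPII coat and -0.16 for ER-associated degradation.

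The gene with the smallest p in this contrast was Sel1l, which measured 301, 366, 313 and 287 CPM in CTR2, CTR4, cKO2 and cKO4 and 213, 239.6, 226 and 237 CPM in CTR1, CTR3, cKO1 and cKO3. All libraries of the higher title numbers were below all of the lower ones, with a log2 difference of -0.47 (standard error 0.10, adjusted p = 0.161 from edgeR). DESeq2's likelihood ratio test called Sel1l alone of the 46 genes, with 2.34% of all genes called.

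The disulfide isomerases and GRP94 had differences of the opposite sign. Pdia6 measured 643, 759.9, 650.1 and 779 CPM in CTR2, CTR4, cKO2 and cKO4 and 843, 931, 937 and 919 CPM in CTR1, CTR3, cKO1 and cKO3, with no overlap and a log2 difference of 0.36 (standard error 0.09, adjusted p = 0.223 from edgeR). P4hb, also the beta subunit of collagen prolyl 4-hydroxylase, measured 942, 1087, 994 and 1059 CPM in CTR2, CTR4, cKO2 and cKO4 and 1186, 1309, 1221 and 1304 CPM in CTR1, CTR3, cKO1 and cKO3, with no overlap and a log2 difference of 0.30 (standard error 0.08, adjusted p = 0.247 from edgeR). CTR2 was the lowest library for both of these genes, and CTR3 was among the highest. The log2 difference of Pdia4 was 0.37 (standard error 0.11, adjusted p = 0.266 from edgeR), with cKO4 as the highest library of the lower title numbers and CTR1 as the lowest of the higher ones. Hsp90b1 measured 838, 1131, 972 and 1077 CPM in CTR2, CTR4, cKO2 and cKO4 and 1178, 1185, 1249.7 and 1274 CPM in CTR1, CTR3, cKO1 and cKO3. Its ranges did not overlap, with a log2 difference of 0.28 (standard error 0.10, adjusted p = 0.35 from edgeR), and CTR2 was the lowest library.

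Xbp1 had a log2 difference of 0.45 (standard error 0.13, adjusted p = 0.27 from edgeR) with overlapping ranges, and 0.36 without CTR3. Sec61a1 measured 368, 333, 336 and 369 CPM in CTR2, CTR4, cKO2 and cKO4 and 359, 424, 458 and 451 CPM in CTR1, CTR3, cKO1 and cKO3, where CTR1 was within the range of the lower title numbers, with a log2 difference of 0.26 (standard error 0.09, adjusted p = 0.341 from edgeR). Sec13, a gene of the coat and of the nuclear pore, measured 131, 110.0, 109.8 and 132 CPM in CTR2, CTR4, cKO2 and cKO4 and 151, 148, 134 and 145 CPM in CTR1, CTR3, cKO1 and cKO3, without overlap and with a log2 difference of 0.26 (standard error 0.10, adjusted p = 0.37 from edgeR). The other genes at an unadjusted p under 0.05 were Mcfd2 (0.19) and Sec61b (0.32), which were higher, and Sec24a (-0.45), which was lower. Calr4 and Sar1a had log2 differences of -0.17 and -0.06 in this contrast, with standard errors of 0.36 and 0.25. Titles 67 to 86 had 18366 to 18750 genes with a count and 26 to 32 had 19363 to 20684, a measure whose part in the result was not tested. The summed MSPC markers were 54890 to 61860 CPM in 67 to 86 and 48920 to 55160 CPM in 26 to 32, and Cxcl12 alone had 44960 to 50720 CPM and 39690 to 44230 CPM. The means of Cxcl12 and Adipoq were higher in 67 to 86, and those of the other 5 of the 7 MSPC markers were lower, such as Kitl with 624 CPM against 799 CPM. The osteoblast markers summed to 10340 to 13520 CPM in 67 to 86 and 13190 to 15770 CPM in 26 to 32, with the mean lower for 4 and higher for 4 of the 8, and the markers of other hematopoietic cells to 83.7 to 189.8 CPM and 47.6 to 115 CPM. Their part in the result was not tested.

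**Figure D5:**
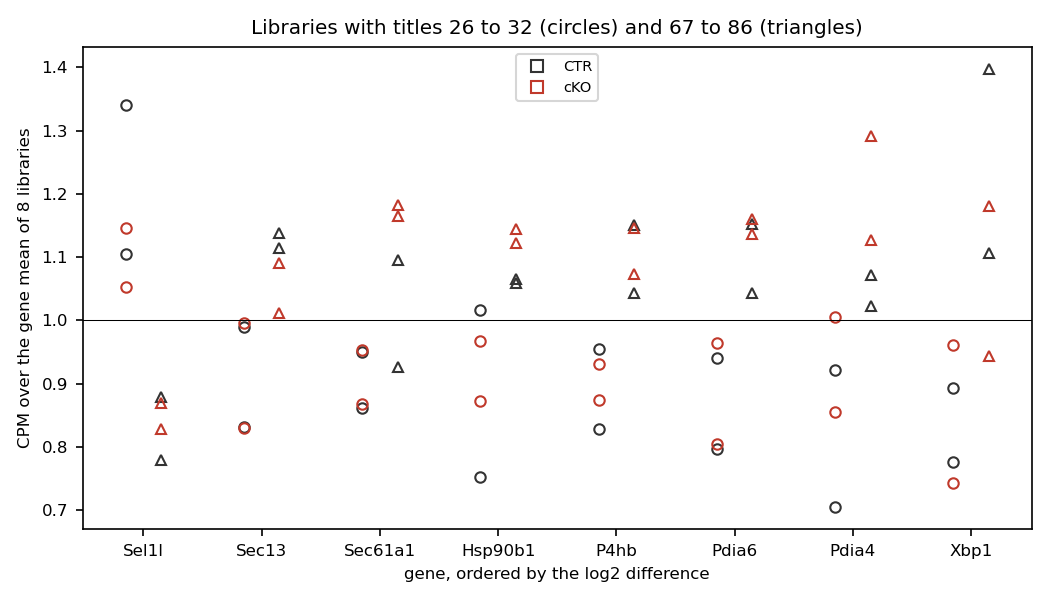
CPM divided by the mean of the 8 libraries for the 8 genes with the smallest p between title ranges, in CTR (black) and cKO (red), with circles for titles 26 to 32 and triangles for 67 to 86. The ranges do not overlap for Sel1l, Sec13, Hsp90b1, P4hb, Pdia6 and Pdia4, and overlap for Sec61a1 and Xbp1.

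Of 106 other genes of the pathway, from the signal recognition particle to COPI and the PERK branch, 104 were tested, and Derl3 and Trib3 lacked a count in at least 1 library. Between genotypes 0 of the 104 had an adjusted p under 0.05 with edgeR, and 1 had an unadjusted p under 0.05 (4.43% of all genes), with a median log2 fold change of -0.0011. This gene was Syvn1, which encodes the HRD1 ligase that partners SEL1L and whose promoter window carries an ERSE. It measured 41.8, 49.8, 52.5 and 48.6 CPM in CTR1 to CTR4 and 67.1, 76.6, 49.96 and 62.3 CPM in cKO1 to cKO4, with CTR3 above cKO3 and a log2 fold change of 0.41 (standard error 0.14). In the other groups the gene with the largest absolute log2 fold change was Cnih1 (-0.53, standard error 0.42) for vesicle receptors and tethers, Ero1lb (0.39, 0.27) for other folding enzymes, Spcs2 (-0.26, 0.37) for the signal peptidase, P3h1 (0.25, 0.23) for collagen modification, Srp14 (-0.21, 0.22) for the signal recognition particle, Copb2 (-0.20, 0.11) for COPI, Rpn2 (0.12, 0.10) for the oligosaccharyltransferase and Ddit3 (-0.11, 0.16) for the PERK branch.

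Between title ranges, 0 of the 104 had an adjusted p under 0.05 with edgeR, and at an unadjusted p under 0.05 there were 17 that were higher in 67 to 86 (5.1% of all genes) and 1 that was lower (6.5% of all genes). DESeq2's likelihood ratio test called 3 (2.34% of all genes), namely the collagen prolyl 3-hydroxylase P3h1 (edgeR log2 difference 0.64, standard error 0.10), the COPI subunit Copz2 (0.58, 0.10) and the p24 protein Tmed7 (-0.32, 0.08). All 11 genes of COPI had a positive difference, as did 49.0% of all genes, and 4 of them had an unadjusted p under 0.05, against 5.1% of all genes that were higher at that level. ERSE were also found in the windows of Creld2, Derl3 and Syvn1 among the 88 other genes with a window. Of these 88 windows, 1 carried an ERSE-II (Krtcap2) and 9 carried a UPRE.

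Some of these genes share sequence with a neighbour or copy, and the strand setting of the counting is not given in the sources used here. For 13 of the 46, a gene that overlaps in exons or has a similar transcript reached at least 1% of the count in at least 1 library. The highest share was that of Rbm15b, which overlaps Manf by 14 bases on the same strand and had 56.0% to 89.0% of the counts of Manf, and Dcaf1, on the opposite strand of Manf, had 9.83% to 19.1%. For Hsp90b1, the opposite-strand transcript 1810014B01Rik had 2550 to 4126 counts, 9.33% to 10.4% of those of Hsp90b1. For Sec61a1, the antisense transcript Gm44170 had 16.5% to 18.1% of its counts, and for Preb, Abhd1 had 12.7% to 27.1%. Neither Calr4, Sar1a, Sec24b nor Sel1l was among the 13 genes. Reads of the 13 could be split with or lost to these partners, so their levels are less certain. A low count of a copy does not show that no reads were lost. Tmed2 and Tmed10 are not among the 13. A copy of Tmed2 matches it over 604 bases at 100% and had 3 to 13 counts. A copy of Tmed10 matches it over 660 bases at 99.4% and had 4 to 13 counts.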

How the data were processed

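According to the methods, the authors trimmed paired reads, used HISAT2 for alignment to GRCm38 and HTSeq-count for counting per gene, and deposited raw counts without normalization for 8 libraries, each of 1 mouse. Tool versions and the strand setting are not given in the sources used here. For differential expression the study used DESeq2's likelihood ratio test with a correction for batch. The batch is not named there, so that test was not repeated in its exact form. Among deposited values of 1 to 20, 23050 are odd and 16283 even, so that nothing is assumed on how the counting tool treated read pairs. Symbols, coordinates and exon lengths come from GENCODE M21 (GRCm38), another release than that in the methods, and 52403 of 52636 genes were matched.

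The genes and lists were chosen with earlier results of these data known. Library sizes were scaled by TMM, and edgeR 4.0.16 tested the 14598 genes that had a count in all 8 libraries (quasi-likelihood fit and test, with Benjamini-Hochberg adjustment over all genes tested, threshold 0.05) in R 4.3.3. Genotypes were compared over all 8 libraries without covariates, and title number ranges with genotype as a term. Since the replicates are separate mice, p-values measure the spread between mice. CPM per kb is CPM divided by the length of the union of exons, which is longer than a single transcript where isoforms differ. Differences within title ranges are those of mean log2 CPM with a prior count of 2. Promoter windows are from RefSeq. Similar transcripts are those aligned over at least 200 bases at 90% identity or more. Values in every library are given for the highest and lowest gene of each role, the 4 largest positive and negative differences between genotypes, genes whose genotypes do not overlap and the 8 smallest p between title ranges. Hspa5, Tmed10 and Hyou1 were added after their values were seen. Alternatives were RLE and library total scaling, no filter and filterByExpr, DESeq2 1.42.0, voom of limma 3.58.1, a replicate block, a title range term and each library left out. Scripts were tested on simulated data. There the edgeR test of genotypes recovered 47.5% of 200 genes with a log2 change of 1 and 81% with a log2 change of 2, with 2 and 4 false calls. A gene that was not called may therefore still differ. Single-cell data of the series were not used here.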

Additional observations from a re-analysis of the deposited data

Results flagged for a closer look

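For each of the 46 genes and each genotype, the gap of the highest or lowest library to its nearest neighbour on the log2 CPM scale was divided by the range of the 4 libraries, and 8 of 92 groups exceeded Dixon's critical value at 95%, where chance gives about 4.6. Library cKO2 was the lowest of cKO for Sec61b (ratio 0.981, 42.2 CPM against 66.6 to 67.2), Calr (0.956, 1090 CPM against 1297 to 1307) and Sdf2l1 (0.897, 58.6 CPM against 81.1 to 84.2). CTR2 was the lowest of CTR for Calr (0.909, 925 CPM against 1303 to 1348), Serp1 (0.886, 248 CPM against 277 to 282) and Hsp90b1 (0.865, 838 CPM against 1131 to 1185). CTR4 was the lowest of CTR for Sec63 (0.864, 107 CPM against 118 to 119.9). Library cKO1 was the highest of cKO for Hyou1 (0.905, 78.5 CPM against 32.9 to 35.7).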

How the results depend on the processing

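The count of the 46 genes called between genotypes was 0 in edgeR and in its other scalings, filters and terms, in limma-voom and with any library left out, and 2 with DESeq2's likelihood ratio test, with and without the title range term. Between title ranges it was 0, and 1 with DESeq2's likelihood ratio test, which called 3 of the 104 other secretory genes, against 0 in the other settings. The cause of these differences was not tested. The median log2 difference between title ranges was 0.0627, and 0.0529 to 0.1099 with a library left out. The median log2 fold change between genotypes was -0.0206, and -0.0667 to 0.0109 with a library left out. At an unadjusted p under 0.05 edgeR with a library left out gave 3 to 6 of the 46 genes between genotypes (3.75% to 4.94% of all genes) and 6 to 13 between title ranges (8.61% to 12.5% of all genes). Single genes moved further than the medians. The log2 fold change of Hyou1 was -0.01 over 8 libraries (standard error 0.28) and -0.41 without cKO1. With each library left out, the value was 1.37 to 1.85 for Calr4 and -1.35 to -0.99 for Sar1a.

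With the replicate number as a block, 0 of the 46 genes and 0 of the 104 were called between genotypes, 6 and 1 had an unadjusted p under 0.05 (5.56% of all genes), and the median log2 fold change was -0.0273. Deviations of same-numbered libraries correlated at 0.0572 to 0.176, above 0.1 for 2 of the 4 numbers, and since pairing was taken only from a correlation above 0.1 for all 4, the numbers were not taken as pairs. That 7 of 8 libraries correlated best with their own number is a hint of a shared factor, though the labels do not call them pairs. Same-numbered libraries of the 2 genotypes also share the title range, whose part in these correlations was not tested. No paired analysis was possible for the title ranges because each number lies within 1 range. With 4 mice per genotype the spread between mice limits the precision.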
